A study of Mus musculus with 21 samples.

Results

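Tcf21, Npnt, Inmt, Itga8, Limch1, Wnt2, Fgf10, Meox2, Gpc3 and Col13a1 mark the alveolar fibroblast, the fibroblast of the gas-exchanging wall of the lung. Their rows were taken by gene symbol from every library. All 10 were among the 23204 deposited symbols, and all 10 were among the 11669 symbols that passed the filter on low counts. The libraries came from lung fibroblasts of C57BL/6 female mice carrying Col1a2-GFP, a transgene that makes cells using the Col1a2 promoter fluoresce green. Cells were sorted as GFP positive, propidium iodide negative and negative for the lineage markers CD45, CD31, EpCAM, CD146 and Ter119, with 10000 cells per library. The untreated group received neither agent. The BLM groups received 1 dose of bleomycin sulfate at 2 mg/kg, and the SiO2 groups 1 dose of crystalline silica at 400 mg/kg, each in 50 µL of saline by oropharyngeal aspiration. Both models were sampled at day 7, day 14 and day 63, and the submitters call BLM the reversible and SiO2 the progressive model of pulmonary fibrosis. Each of the 7 groups had 3 libraries of 3′ transcript tags (3′SAGE-seq), 21 in all. The labels give the untreated group no day and no aspirated volume, and none of the groups received saline alone. Comparisons with untreated therefore cannot tell the agent apart from the aspiration, the saline or the time point. The sort sees only cells in which the Col1a2 promoter is active. The labels do not say whether the libraries of a group came from separate mice, so a p-value measures the spread between these libraries, which may be technical.

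Alveolar fibroblasts lie beside the alveolar epithelium and are known for making matrix, growth factors and lipid stores that the epithelium uses. Tcf21 and Meox2 are transcription factors of lung mesenchyme. Wnt2 and Fgf10 are secreted signals from mesenchyme to epithelium, and Gpc3 is a cell-surface proteoglycan that modulates such signals. Npnt, a basement membrane protein, is a ligand of the integrin whose alpha chain is Itga8. Col13a1 is a collagen that spans the plasma membrane. Inmt is a methyltransferase, and Limch1 is an activator of non-muscle myosin.

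Promoter sequence is shown for 4 of the genes: Inmt with the widest range of levels, Npnt and Tcf21 as widely used markers of these cells, and Meox2, the gene of the 10 with no called fall after treatment. The sequences are RefSeq's (GRCm38.p6, the mm10 genome), each from at most 250 bases before the annotated start and read 5′ to 3′ on the gene's own strand. Bases after the more upstream of the RefSeq and GENCODE vM21 starts were left off. Capitals mark matches on either strand to 3 motifs. The TATA box was searched as TATAAA and the GC box, which Sp factors bind, as GGGCGG. The E-box, bound by basic helix-loop-helix factors such as Tcf21, was searched as CANNTG.
Inmt promoter, chr6:55175044-55175240, minus strand: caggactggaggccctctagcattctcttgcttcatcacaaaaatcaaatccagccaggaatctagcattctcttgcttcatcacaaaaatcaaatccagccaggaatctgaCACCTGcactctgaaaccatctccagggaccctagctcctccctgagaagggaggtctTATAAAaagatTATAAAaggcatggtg
Npnt promoter, chr3:132950292-132950541, minus strand: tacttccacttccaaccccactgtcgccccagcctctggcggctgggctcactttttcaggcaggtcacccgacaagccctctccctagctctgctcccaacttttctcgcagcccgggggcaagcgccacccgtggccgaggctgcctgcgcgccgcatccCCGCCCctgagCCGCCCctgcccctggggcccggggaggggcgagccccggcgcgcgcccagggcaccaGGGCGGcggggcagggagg
Tcf21 promoter, chr10:22820175-22820393, minus strand: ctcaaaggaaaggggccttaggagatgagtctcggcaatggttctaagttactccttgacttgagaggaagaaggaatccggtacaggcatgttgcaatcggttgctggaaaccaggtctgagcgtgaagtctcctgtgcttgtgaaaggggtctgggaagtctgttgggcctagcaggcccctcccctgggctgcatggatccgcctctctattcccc
Meox2 promoter, chr12:37108290-37108539, plus strand: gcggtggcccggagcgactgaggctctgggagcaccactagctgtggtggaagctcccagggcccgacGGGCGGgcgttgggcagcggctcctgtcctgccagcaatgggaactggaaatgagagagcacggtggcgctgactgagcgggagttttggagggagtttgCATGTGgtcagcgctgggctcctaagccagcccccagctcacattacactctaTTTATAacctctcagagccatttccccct

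RefSeq windows of 250 bases were found for all 10 genes and set beside the 32851 windows in its table. The RefSeq start of Fgf10 lies 44908 bases from its GENCODE vM21 start, against 0 to 140 bases for the other 9, so its window is that of another annotated start. TATAAA was in the windows of Inmt, Meox2 and Col13a1, and in 12.4% of all windows. GGGCGG was in 6 of the 10 (Npnt, Limch1, Wnt2, Fgf10, Meox2 and Gpc3) and in 32.7% of all windows. CANNTG was in 5 (Inmt, Itga8, Fgf10, Meox2 and Col13a1) and in 66.2% of all windows. In the Inmt window TATAAA stood at positions -80 and -69 from the RefSeq start. The GENCODE vM21 start of Inmt, where the sequence shown ends, lies 53 bases upstream of the RefSeq start, so both matches lie nearer to it. None of the 10 windows held the AP-1 motif TGANTCA (6.7% of all windows), the homeobox motif TAATTA (4.8%) or the Tcf/Lef motif CTTTGAT (3.2%). No motif was shared by all 10 genes, and a match is a description of the letters, not of binding.

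Total counts ran from 2080636 to 4477283 per library with a median of 3774431, and levels are given as CPM, the count scaled to the same library size in every sample by TMM. Reads come from 3′ ends, so a level is not compared between genes. The counting strand is not given in the sources used here, and 7 of the 10 genes (all but Inmt, Wnt2 and Meox2) overlap a gene on the opposite strand, whose reads could not be told apart. The fibroblast markers (Col1a1, Col1a2, Col3a1, Pdgfra, Pdgfrb, Dcn, Lum, Thy1, Mfap5 and Fbln1) were detected in every group and summed to 17221 to 30815 CPM per library. Log2 fold changes (log2 FC) are given ± SE from 1 edgeR quasi-likelihood model over all 21 libraries, and each adjusted p is the Benjamini-Hochberg value of that test over the 11669 genes. A gene is called at an adjusted p under 0.05. The 6 comparisons with untreated share the same 3 untreated libraries. In such bulk samples, fewer cells of a type and less RNA per cell cannot be told apart.

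At day 7 after BLM, 8 of the 10 genes fell and none rose, against 14.9% lower and 16.7% higher of all tested genes. At day 14 after BLM, 9 fell and none rose (18.5% lower and 20.7% higher of all). At day 63 after BLM, 4 were lower (Tcf21, Npnt, Wnt2 and Col13a1) and Meox2 was higher, against 5.48% lower and 6.02% higher of all tested genes. These day 63 counts rested on single libraries: of the 10, 1 was lower without untreated replicate 1, BLM day 63 replicate 2 or BLM day 63 replicate 3, and none was higher without untreated replicate 2, untreated replicate 3 or BLM day 63 replicate 2. At day 7 after SiO2, 9 fell and none rose (20.6% lower and 23.4% higher of all). At day 14 after SiO2, 7 were lower and none higher, beside 10.5% and 13.6% of all. At day 63 after SiO2, 8 were lower and none higher, beside 12.5% and 15.3%. The median log2 FC of the 10 genes was -0.73, -1.16 and -0.15 at BLM day 7, 14 and 63, and -1.70, -0.52 and -0.91 at the same days after SiO2, where the median over all tested genes was between 0.01 and 0.04. Tcf21, Npnt, Wnt2 and Col13a1 were called lower in all 6 comparisons, and how many of all tested genes were so was not counted. At SiO2 day 7 all 10 genes, Meox2 included, had their 3 libraries below the 3 untreated ones, which held for 24.3% of all tested genes.

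**Figure D1:**
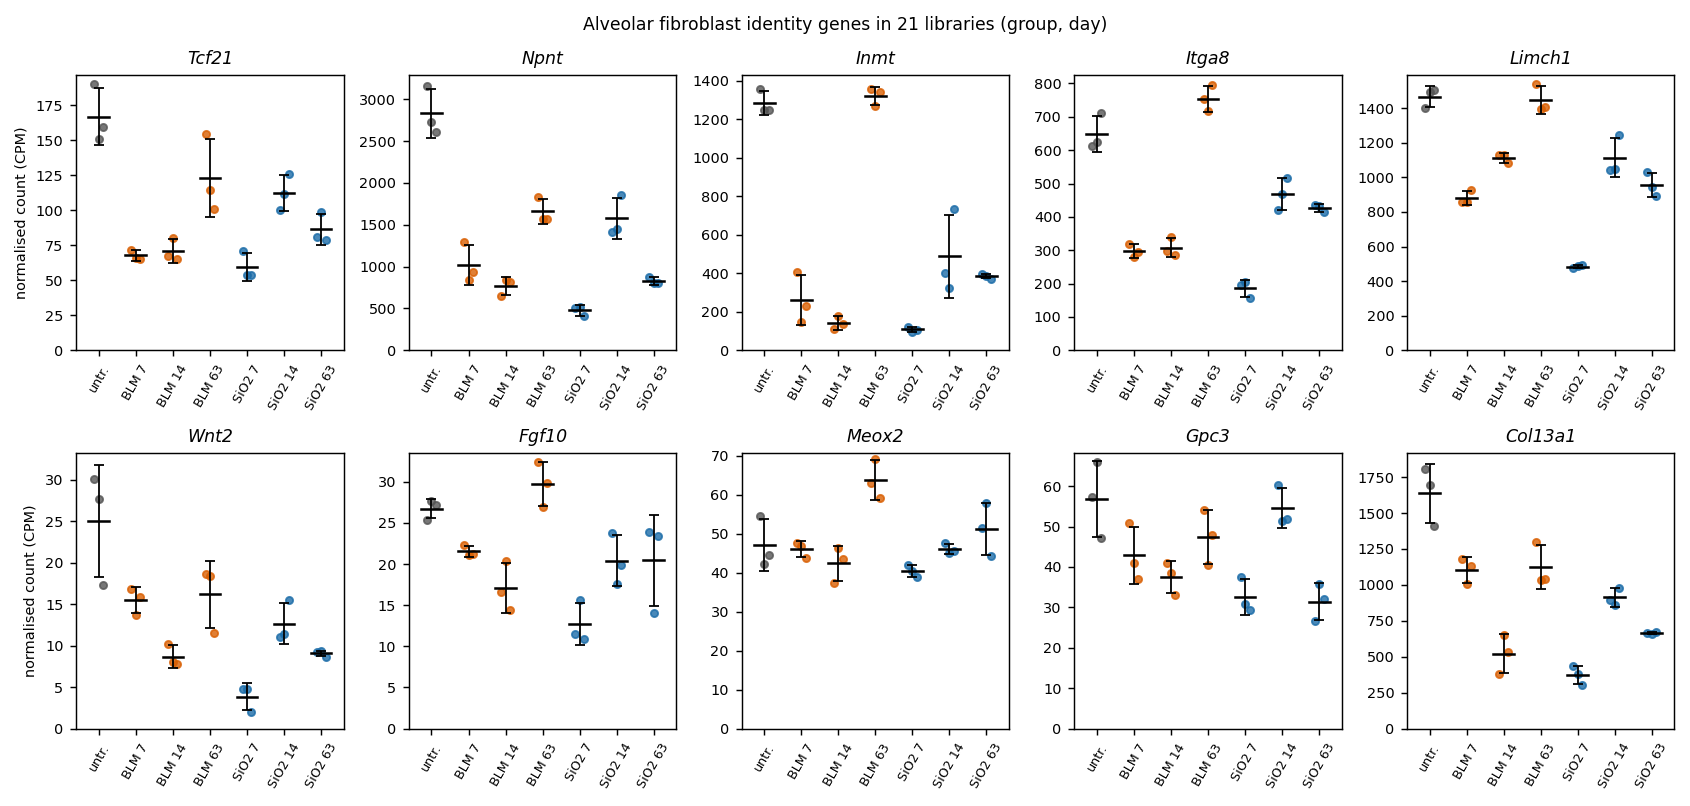
Normalised count (CPM, linear axis from 0) of each of the 10 genes in the 21 libraries, by group and day; points are libraries and bars the mean ± SD of 3 libraries. For 9 genes the lowest group mean is at SiO2 day 7, and for Inmt, Itga8, Fgf10 and Meox2 the highest is at BLM day 63.

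Inmt (chr6:55170626-55175043, minus strand, mm10, GENCODE vM21), which encodes indolethylamine N-methyltransferase, had the widest range of the 10, with 3.60 log2 units between its highest and lowest group. The untreated libraries held 1359, 1246 and 1250 CPM. After BLM the libraries held 405.7, 148.4 and 231.3 CPM at day 7, then 110.2, 179.3 and 134.9 at day 14, and 1356, 1270 and 1343 at day 63. Every library of the 2 early BLM groups was far below untreated, and the day 63 libraries all lay within the untreated range. After SiO2 they held 123.4, 96.71 and 108.1 CPM at day 7, then 403.8, 324.6 and 735.2 at day 14, and 396.3, 386.3 and 373 at day 63. No SiO2 library reached the lowest untreated one at any day. Inmt fell by 2.30 ± 0.24 on the log2 scale at BLM day 7 (adjusted p = 8.46e-09) and by 3.18 ± 0.25 at BLM day 14 (adjusted p = 1.48e-11). At BLM day 63 it stood at 103% of the untreated mean, a log2 difference of 0.04 with a 95% interval from -0.42 to 0.50 (adjusted p = 0.939). It fell by 3.55 ± 0.25 at SiO2 day 7 (adjusted p = 1.3e-12), by 1.40 ± 0.23 at day 14 (2.97e-05) and by 1.74 ± 0.23 at day 63 (7.9e-07).

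Limch1 (chr5:66745827-67057158, plus strand), the myosin activator, had a smaller range of 1.60 log2 units. Untreated libraries held 1398, 1495 and 1506 CPM. The BLM libraries held 859.5, 858.6 and 927.9 CPM at day 7, then 1129, 1126 and 1080 at day 14, and 1541, 1396 and 1408 at day 63. The libraries of BLM day 14 were all above those of BLM day 7, and those of BLM day 63 overlapped untreated. The SiO2 libraries held 475.3, 486.2 and 490.8 CPM at day 7, then 1044, 1050 and 1243 at day 14, and 1031, 943.8 and 892.6 at day 63. All 9 SiO2 libraries were below untreated. Limch1 fell by 0.73 ± 0.09 at BLM day 7 (adjusted p = 1.46e-07) and by 1.60 ± 0.09 at SiO2 day 7 (adjusted p = 1.03e-14). At BLM day 63 its log2 difference from untreated was -0.02 with a 95% interval from -0.20 to 0.16 (adjusted p = 0.936), while at SiO2 day 63 it was -0.62 ± 0.09 (adjusted p = 2.54e-06).

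Of the transcription factors, Tcf21 was called lower in every treated group and Meox2 in none. Tcf21 (chr10:22817281-22820174, minus strand) is a basic helix-loop-helix factor needed for lung mesenchyme development. Its untreated libraries held 189.9, 151 and 159.7 CPM. After BLM they held 71.96, 66.03 and 65.28 CPM at day 7, then 67.1, 80.38 and 65.22 at day 14, and 154.6, 114.5 and 101 at day 63. BLM day 63 replicate 1 was inside the untreated range and the other 2 libraries were below it. After SiO2 they held 70.98, 53.67 and 53.67 CPM at day 7, then 99.84, 111.4 and 125.9 at day 14, and 80.95, 99.04 and 78.79 at day 63, all below untreated. The log2 FC was -1.30 ± 0.14 at BLM day 7 (adjusted p = 2.93e-08), -1.24 ± 0.14 at BLM day 14 (4.1e-08) and -0.44 ± 0.14 at BLM day 63 (0.0359). At SiO2 day 7, 14 and 63 it was -1.49 ± 0.15 (adjusted p = 8.13e-10), -0.57 ± 0.14 (0.00271) and -0.95 ± 0.14 (3.74e-06). The BLM day 63 call of Tcf21 was lost without untreated replicate 1, BLM day 63 replicate 2 or BLM day 63 replicate 3 (log2 FC -0.31 to -0.39, adjusted p 0.142 to 0.240) and with total counts as the scale (adjusted p = 0.0511).

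Meox2 (chr12:37108540-37179534, plus strand), a homeobox factor of mesoderm, held 54.65, 42.2 and 44.48 CPM in untreated libraries. None of the early groups was called against untreated. Libraries held 43.73 to 47.59 CPM at BLM day 7, 37.44 to 46.32 at BLM day 14 and 45.04 to 47.54 at SiO2 day 14. At SiO2 day 7 they held 38.98 to 41.89 CPM, each below every untreated one. At BLM day 63 the libraries held 62.97, 69.16 and 59.15 CPM, each above every untreated one, and at SiO2 day 63 they held 51.51, 57.77 and 44.29. The log2 difference from untreated was -0.04 at BLM day 7 (95% interval -0.30 to 0.23, adjusted p = 0.856) and -0.23 at SiO2 day 7 (-0.49 to 0.04, adjusted p = 0.165). These intervals exclude a fall of the size seen for Tcf21 on the same day. Meox2 was higher by 0.43 ± 0.13 at BLM day 63 (adjusted p = 0.0238), a call lost without untreated replicate 2, untreated replicate 3 or BLM day 63 replicate 2 (log2 FC 0.35 to 0.39, adjusted p 0.0764 to 0.141).

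The secreted signals were read at low counts. Wnt2 (chr6:17988940-18030585, minus strand), a Wnt ligand of lung mesenchyme, had 37 to 116 reads in an untreated library and 8 to 19 at SiO2 day 7. Its untreated libraries held 30.05, 27.63 and 17.32 CPM, the third well below the others. The BLM libraries held 16.83, 13.73 and 15.85 CPM at day 7, then 10.24, 8.068 and 7.737 at day 14, and 18.67, 18.37 and 11.56 at day 63. The SiO2 libraries held 4.766, 4.782 and 2.025 CPM at day 7, then 10.99, 11.46 and 15.55 at day 14, and 9.199, 9.318 and 8.681 at day 63. Except for 2 of the BLM day 63 libraries, every treated library was below the lowest untreated one. Wnt2 fell in all 6 groups, with a log2 FC of -2.72 ± 0.27 at SiO2 day 7 (adjusted p = 8.37e-10), -1.005 ± 0.223 at SiO2 day 14 (0.00108) and -1.497 ± 0.231 at SiO2 day 63 (7.32e-06). After BLM the log2 FC was -0.73 ± 0.22 at day 7 (adjusted p = 0.0109), -1.57 ± 0.24 at day 14 (4.22e-06) and -0.67 ± 0.22 at day 63 (0.0393). The day 7 call after BLM was lost without untreated replicate 1, untreated replicate 2 or BLM day 7 replicate 2 (log2 FC -0.58 to -0.65, adjusted p 0.0553 to 0.0873). The BLM day 63 call of Wnt2 was lost without untreated replicate 1, untreated replicate 2, BLM day 63 replicate 2 or BLM day 63 replicate 3 (log2 FC -0.47 to -0.77, adjusted p 0.0508 to 0.251) and with total counts as the scale (adjusted p = 0.0527).

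Fgf10 (chr13:118669791-118792115, plus strand), a growth factor for alveolar epithelial progenitors, held 25.38, 27.63 and 27.16 CPM untreated. Its BLM libraries ranged from 21.13 to 22.34 CPM at day 7, from 14.37 to 20.32 at day 14 and from 26.97 to 32.36 at day 63. Its SiO2 libraries held 11.54, 15.67 and 10.88 CPM at day 7, then 23.77, 17.59 and 19.92 at day 14, and 23.92, 14.11 and 23.37 at day 63. Only the BLM day 63 libraries reached the untreated ones. Fgf10 fell at SiO2 day 7 by 1.07 ± 0.19 (adjusted p = 3.25e-05) and at BLM day 14 by 0.64 ± 0.19 (adjusted p = 0.00718), and the latter call was lost without BLM day 14 replicate 3 (log2 FC -0.52, adjusted p = 0.0554). It was not called at BLM day 7 (log2 FC -0.31, 95% interval -0.68 to 0.07, adjusted p = 0.211), SiO2 day 14 (-0.39, -0.76 to -0.02, 0.125), SiO2 day 63 (-0.38, -0.75 to -0.01, 0.124) or BLM day 63 (0.16, -0.20 to 0.51, 0.647).

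Gpc3 (chrX:52272426-52613950, minus strand), a glypican, was the gene of the 10 whose lowest group was SiO2 day 63. It held 57.24, 66.06 and 47.29 CPM untreated, 37.62, 30.82 and 29.36 at SiO2 day 7, then 60.32, 51.43 and 51.99 at SiO2 day 14, and 26.54, 35.68 and 32.05 at SiO2 day 63. The day 14 libraries of SiO2 were inside the untreated range, and those of day 7 and day 63 were below it. The BLM libraries ranged from 37.08 to 50.78 CPM at day 7, from 33.16 to 40.97 at day 14 and from 40.46 to 54.01 at day 63. Gpc3 fell by 0.82 ± 0.15 at SiO2 day 7 (adjusted p = 6.57e-05) and by 0.87 ± 0.15 at SiO2 day 63 (5.55e-05), and at SiO2 day 14 the difference was -0.08 (95% interval -0.38 to 0.23, adjusted p = 0.766). After BLM it fell by 0.62 ± 0.16 at day 14 (adjusted p = 0.00187). Its fall by 0.42 ± 0.15 at BLM day 7 (adjusted p = 0.0341) was lost without untreated replicate 1, untreated replicate 2, BLM day 7 replicate 2 or BLM day 7 replicate 3 (log2 FC -0.28 to -0.42, adjusted p 0.0765 to 0.238), and with no filter on low counts (adjusted p = 0.0614). At BLM day 63 its log2 difference from untreated was -0.27 (95% interval -0.58 to 0.03, adjusted p = 0.266).

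Among the matrix and adhesion genes, the ligand Npnt and its receptor chain Itga8 both fell early, and at BLM day 63 Npnt was still lower while Itga8 was not called. The difference between the 2 genes was not tested. Npnt (chr3:132881745-132950291, minus strand) held 3157, 2724 and 2607 CPM untreated. After BLM it held 1289, 836.4 and 938.7 CPM at day 7, then 651.2, 836.1 and 819.9 at day 14, and 1836, 1573 and 1569 at day 63. After SiO2 it held 511.2, 516.7 and 406.3 CPM at day 7, then 1415, 1449 and 1861 at day 14, and 881.5, 800.3 and 800.4 at day 63. No treated library of either model reached the lowest untreated one. The log2 FC of Npnt was -1.47 ± 0.14, -1.88 ± 0.14 and -0.77 ± 0.13 at BLM day 7, 14 and 63 (adjusted p = 1.05e-09, 3.02e-12 and 0.000187). It was -2.57 ± 0.14, -0.85 ± 0.13 and -1.77 ± 0.14 at SiO2 day 7, 14 and 63 (adjusted p = 5.59e-15, 1.64e-05 and 1.96e-11).

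Itga8 (chr2:12106632-12301922, minus strand) held 611.3, 623.2 and 710.7 CPM untreated. The BLM libraries held 318.9, 279.2 and 293.8 CPM at day 7, then 297.4, 339.4 and 284.4 at day 14, and 751.9, 717.1 and 794.8 at day 63. Each BLM day 63 library was thus above every untreated one, though the log2 difference of 0.22 was not called (95% interval 0.01 to 0.43, adjusted p = 0.191). The SiO2 libraries held 196.9, 205.4 and 157.7 CPM at day 7, then 420.5, 468.5 and 516.8 at day 14, and 435.5, 434 and 413.3 at day 63. All 9 were below untreated. Itga8 fell by 1.12 ± 0.11 at BLM day 7 (adjusted p = 1.58e-09) and fell by 1.795 ± 0.109 at SiO2 day 7 (3.41e-14), and its log2 FC was still -0.60 ± 0.11 at SiO2 day 63 (adjusted p = 4.73e-05).

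Col13a1 (chr10:61838236-61979108, minus strand) held 1807, 1696 and 1412 CPM untreated. After BLM it held 1180, 1006 and 1129 CPM at day 7, then 381.8, 649.6 and 533.9 at day 14, and 1299, 1035 and 1038 at day 63. After SiO2 it held 434.4, 382.8 and 305.3 CPM at day 7, then 896.5, 859.1 and 981.8 at day 14, and 663.3, 657.6 and 675.1 at day 63. All 18 treated libraries were below the 3 untreated ones, and BLM day 63 overlapped BLM day 7. The log2 FC of Col13a1 was -0.57 ± 0.14, -1.65 ± 0.14 and -0.54 ± 0.14 at BLM day 7, 14 and 63 (adjusted p = 0.00186, 9.88e-11 and 0.00816). At SiO2 day 7, 14 and 63 it was -2.13 ± 0.14, -0.84 ± 0.14 and -1.30 ± 0.14 (adjusted p = 4.13e-13, 2.7e-05 and 1.59e-08). The call at BLM day 63 was lost without untreated replicate 1, BLM day 63 replicate 2 or BLM day 63 replicate 3 (log2 FC -0.47 to -0.49, adjusted p 0.0512 to 0.0562).

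**Figure D2:**
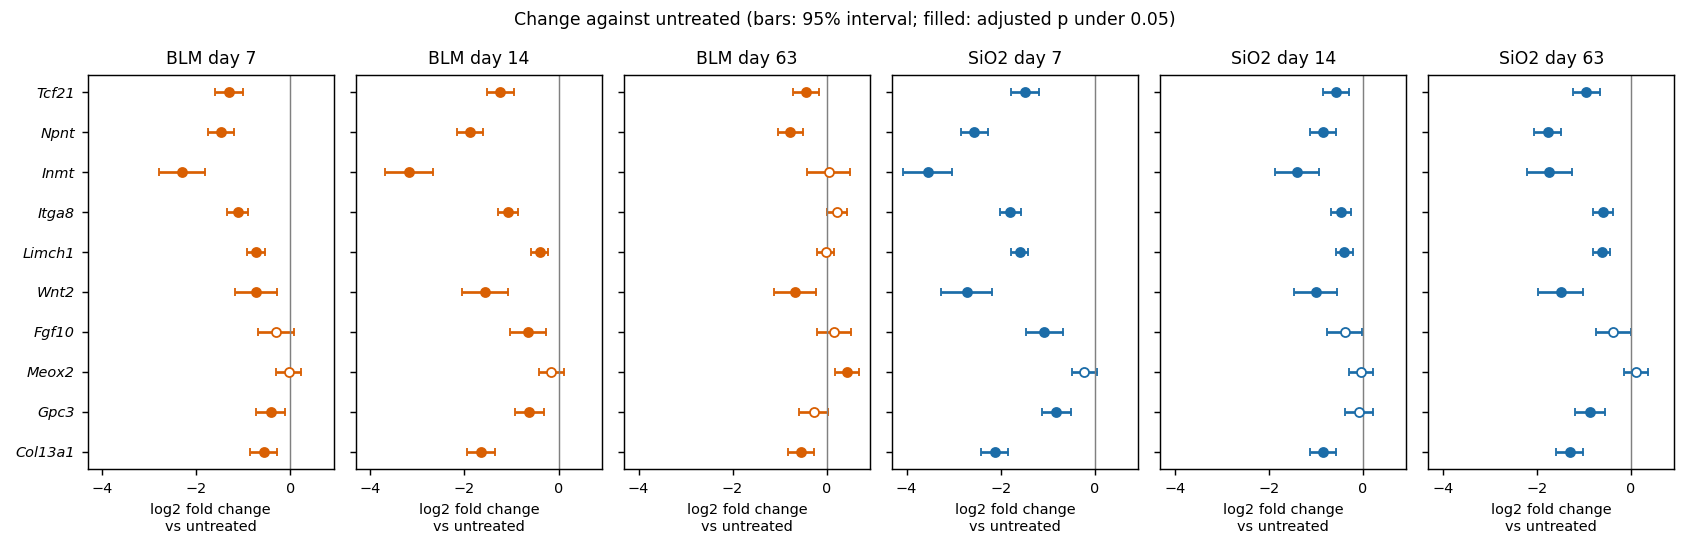
Log2 fold change against untreated of the 10 genes in each of the 6 treated groups (columns); bars are 95% intervals and filled points have an adjusted p under 0.05. At BLM day 63 the points of Inmt, Itga8, Limch1 and Fgf10 sit near 0, while at SiO2 day 63 8 of the 10 are filled and to the left of 0.

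Ordered by group mean, SiO2 day 7 was the lowest of the 7 groups for 9 genes, and untreated the highest for 6 and BLM day 63 for 4. Within BLM the lowest day was day 14 for 7 genes and day 7 for 3 (Tcf21, Itga8 and Limch1). Within SiO2 it was day 7 for 9 genes. Of the 60 pairs of neighbouring groups in these orders, 40 had overlapping libraries, so most single steps of an order were within the spread of the libraries. For Npnt the order had 3 clear steps: untreated above BLM day 63, SiO2 day 14 above BLM day 7, and BLM day 14 above SiO2 day 7. For Gpc3 no neighbouring pair was clear of overlap. The coefficient of variation of a gene within a group had a median of 11.1% and ran from 1.34% (Col13a1, SiO2 day 63) to 50.1% (Inmt, BLM day 7).

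SiO2 and BLM were compared on the same day. At day 7, 7 of the 10 genes were lower in SiO2 than in BLM and none was higher, against 5.10% lower and 5.29% higher of all tested genes. The largest difference was in Wnt2 (log2 FC -1.99 ± 0.28, adjusted p = 6.54e-06), followed by Col13a1 (-1.56 ± 0.14, 2.88e-09), Inmt (-1.26 ± 0.24, 0.000488) and Npnt (-1.09 ± 0.14, 8.46e-07). Limch1 (-0.87 ± 0.09), Fgf10 (-0.77 ± 0.20) and Itga8 (-0.67 ± 0.11) were also called. Tcf21 was not (log2 FC -0.19, 95% interval -0.49 to 0.12, adjusted p = 0.508), nor were Meox2 (-0.19, -0.45 to 0.08, 0.426) and Gpc3 (-0.40, -0.72 to -0.08, 0.11). BLM day 7 replicate 1 was the highest of its group for 9 of the 10 genes, and without it the Inmt difference was -0.79 (adjusted p = 0.0169). Without SiO2 day 7 replicate 3 the call of Fgf10 was lost (log2 FC -0.68, adjusted p = 0.0530).

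At day 14 the direction was the opposite. Of the 10 genes, 6 were higher in SiO2 than in BLM and none was lower, against 9.06% higher and 8.03% lower of all tested genes. They were Inmt (log2 FC 1.78 ± 0.24, adjusted p = 1.78e-06), Npnt (1.03 ± 0.14, 1.13e-06), Col13a1 (0.81 ± 0.14, 7.9e-05), Tcf21 (0.67 ± 0.15, 0.00126), Itga8 (0.61 ± 0.11, 8.07e-05) and Gpc3 (0.54 ± 0.15, 0.0129). The call of Gpc3 was lost without BLM day 14 replicate 3 (log2 FC 0.46, adjusted p = 0.0807) or SiO2 day 14 replicate 1 (0.47, 0.0673). Limch1 stood at the same mean in both models, with a difference of 0.00 and a 95% interval from -0.18 to 0.18. Wnt2 was not called (0.56, 0.04 to 1.09, adjusted p = 0.142), nor were Fgf10 (0.25, -0.14 to 0.65, 0.42) and Meox2 (0.12, -0.15 to 0.38, 0.616).

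At day 63, 9 of the 10 genes were lower in SiO2 than in BLM and none was higher, against 6.44% lower and 9.13% higher of all tested genes. All 10 genes had their 3 SiO2 libraries below the 3 BLM libraries, which held for 14.5% of all tested genes. The largest differences were in Inmt (log2 FC -1.78 ± 0.23, adjusted p = 1.15e-06), Npnt (-1.004 ± 0.135, 1.72e-06), Wnt2 (-0.83 ± 0.24, 0.0154), Itga8 (-0.82 ± 0.11, 7.42e-07) and Col13a1 (-0.76 ± 0.14, 0.000183). Limch1 and Gpc3 were each at -0.60 (SE 0.09 and 0.15), Fgf10 at -0.53 ± 0.17 and Tcf21 at -0.52 ± 0.14. Meox2 had a log2 FC of -0.32 (95% interval -0.57 to -0.07, adjusted p = 0.0817). It was called at -0.37 with upper quartile scaling (adjusted p = 0.0396) or total counts alone (0.0351), and at -0.41 without SiO2 day 63 replicate 2 (0.0474). BLM day 63 replicate 1 was the highest of its group for 8 of the 10 genes. Without it 5 genes were called lower, and Tcf21 (-0.32, adjusted p = 0.162), Wnt2 (-0.70, 0.0913), Fgf10 (-0.47, 0.130) and Gpc3 (-0.49, 0.0588) lost their calls. Single other libraries also ended these 4 calls. Wnt2 was lost without BLM day 63 replicate 2 (-0.73, adjusted p = 0.0714) or SiO2 day 63 replicate 3 (-0.79, 0.0627), and Tcf21 without SiO2 day 63 replicate 3 (-0.45, 0.0659). Fgf10 was lost without BLM day 63 replicate 3 (-0.54, adjusted p = 0.0778) or SiO2 day 63 replicate 2 (-0.33, 0.258), and Gpc3 without SiO2 day 63 replicate 1 (-0.49, 0.0545). The calls of Inmt, Npnt, Itga8, Limch1 and Col13a1 held with each single library left out. Inmt, Npnt, Itga8 and Col13a1 were called lower, higher and lower again in SiO2 at day 7, 14 and 63. The share of all tested genes with this pattern was not counted.

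**Figure D3:**
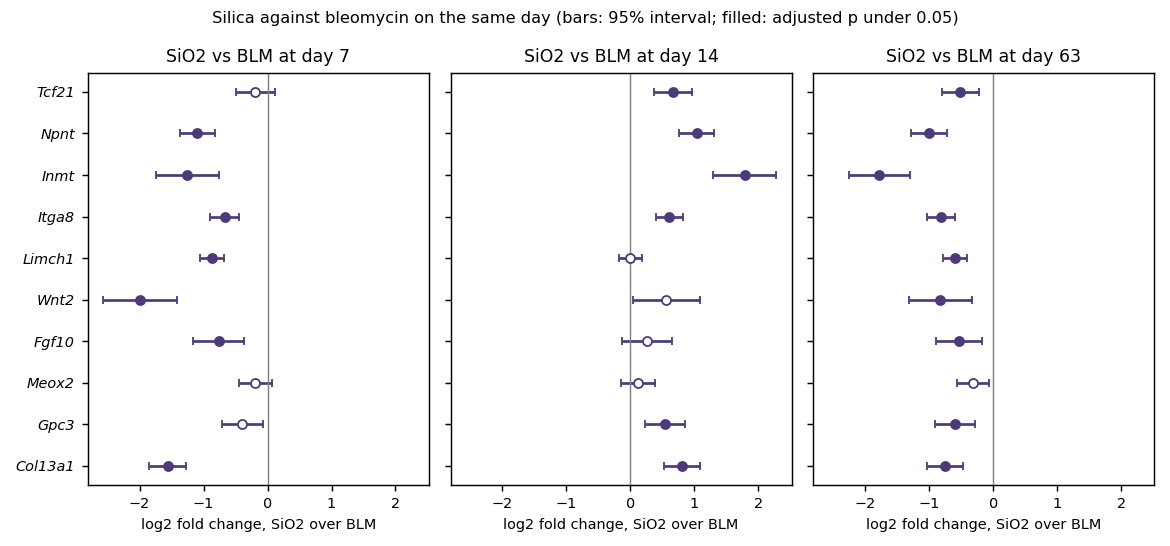
Log2 fold change of SiO2 over BLM on the same day for the 10 genes; bars are 95% intervals and filled points have an adjusted p under 0.05. Filled points lie left of 0 at day 7 (7 genes), right of 0 at day 14 (6 genes) and left of 0 at day 63 (9 genes).

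Between day 7 and day 14 the genes rose after SiO2, while after BLM most did not. After SiO2, 9 of the 10 genes were higher at day 14 than at day 7, against 12.2% higher of all tested genes, and all 10 had libraries that did not overlap in that direction, which held for 18.5% of all. Inmt rose by 2.16 ± 0.24 (adjusted p = 7.63e-08), Npnt and Wnt2 by 1.72 (SE 0.14 and 0.29), Itga8 by 1.33 ± 0.11, Col13a1 by 1.29 ± 0.14 and Limch1 by 1.20 ± 0.09. Tcf21 rose by 0.92 ± 0.15, Gpc3 by 0.74 ± 0.15 and Fgf10 by 0.68 ± 0.20, and the Fgf10 call was lost without SiO2 day 7 replicate 3 (log2 FC 0.59, adjusted p = 0.0605) or SiO2 day 14 replicate 1 (0.57, 0.0604). Meox2 had a log2 FC of 0.19 (95% interval -0.07 to 0.45, adjusted p = 0.328).

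After BLM, 4 genes were lower at day 14 than at day 7 and 1 was higher, against 4.82% lower and 5.20% higher of all tested genes. Col13a1 fell by 1.08 ± 0.14 (adjusted p = 3.74e-06), and this call held with each single library left out. Inmt fell by 0.88 ± 0.24 (adjusted p = 0.0145), Wnt2 by 0.84 ± 0.25 (0.0302) and Npnt by 0.41 ± 0.13 (0.0491), while Limch1 rose by 0.33 ± 0.09 (0.0130). These 4 calls rested on single libraries. Without BLM day 7 replicate 1, only Col13a1 was called, and the log2 FC was -0.42 for Inmt (adjusted p = 0.306), -0.21 for Npnt (0.429), -0.77 for Wnt2 (0.116) and 0.31 for Limch1 (0.0636). Leaving out BLM day 14 replicate 1 or BLM day 14 replicate 3 also ended the calls of Inmt (-0.74 and -0.85) and Npnt (-0.30 and -0.46), leaving out BLM day 14 replicate 2 those of Npnt (-0.47) and Wnt2 (-0.79), and leaving out BLM day 14 replicate 3 that of Wnt2 (-0.76). Wnt2 was further lost without BLM day 7 replicate 3 (-0.82), Limch1 without BLM day 7 replicate 2 (0.31) and Npnt without SiO2 day 63 replicate 1 or SiO2 day 63 replicate 2 (both -0.41). With other tools or samples, Inmt missed the threshold in DESeq2 (adjusted p = 0.0578). Npnt missed it in limma-voom (0.0630), with the replicate number as a block (log2 FC -0.39, 0.0642) and in a fit of the compared groups alone (0.0772).

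The difference between those changes was tested as an interaction, the change from day 7 to day 14 in SiO2 minus that in BLM. It was above 0 for 9 of the 10 genes, against 9.74% of all tested genes. It was largest in Inmt (3.04 ± 0.34 on the log2 scale, adjusted p = 9.86e-08), Wnt2 (2.56 ± 0.38, 1.04e-05), Col13a1 (2.37 ± 0.20, 5.65e-10) and Npnt (2.13 ± 0.19, 2.07e-09). Meox2, at 0.30 (95% interval -0.07 to 0.68, adjusted p = 0.275), was the exception.

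From day 14 to day 63, 9 of the 10 genes rose after BLM, against 15.4% higher of all tested genes. Inmt rose most, by 3.22 ± 0.25 (adjusted p = 2.04e-11), followed by Itga8 (1.30 ± 0.11), Npnt and Col13a1 (both 1.11 ± 0.14), Wnt2 (0.90 ± 0.25), Tcf21 (0.80 ± 0.14), Fgf10 (0.80 ± 0.18), Meox2 (0.58 ± 0.13) and Limch1 (0.38 ± 0.09). Gpc3 had a log2 FC of 0.34 (95% interval 0.03 to 0.66, adjusted p = 0.0889). It was called at 0.45 with total counts alone (adjusted p = 0.0224) and at 0.44 without BLM day 63 replicate 2 (0.0486). After SiO2, only Npnt (-0.93 ± 0.13, adjusted p = 6.89e-05) and Gpc3 (-0.79 ± 0.15, 0.00231) were called between day 14 and day 63, both downward, against 2.00% lower of all tested genes. Tcf21 (-0.38, 95% interval -0.67 to -0.095, adjusted p = 0.143), Limch1 (-0.22, -0.40 to -0.04, 0.194) and Wnt2 (-0.49, adjusted p = 0.333) were not called. The day 63 libraries of these genes lay below their day 14 libraries. How many of all tested genes showed the same was not counted. Inmt, at -0.34 (95% interval -0.81 to 0.13, adjusted p = 0.503), overlapped between these days. Col13a1 was at -0.46 ± 0.14 (adjusted p = 0.0619) and was called in limma-voom (0.0472), without a filter on low counts (0.00192), in a fit of the compared groups alone (0.00979), and without BLM day 14 replicate 1, BLM day 14 replicate 2, SiO2 day 7 replicate 1 or SiO2 day 7 replicate 3 (log2 FC -0.46, adjusted p 0.0230 to 0.0484).

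The interaction over this interval, the change from day 14 to day 63 in SiO2 minus that in BLM, was below 0 for 9 of the 10 genes, against 8.81% of all tested genes. It was -3.57 ± 0.34 for Inmt (adjusted p = 3.23e-09), -2.04 ± 0.19 for Npnt (3.15e-09), -1.56 ± 0.20 for Col13a1 (6.6e-07) and -1.43 ± 0.15 for Itga8 (2.43e-08). Meox2 was at -0.43 (95% interval -0.80 to -0.07, adjusted p = 0.0925) and was called at -0.51 with total counts alone (0.0459). The call of Fgf10 (-0.79 ± 0.26, adjusted p = 0.0315) was lost without BLM day 14 replicate 1, BLM day 14 replicate 3, BLM day 63 replicate 1, SiO2 day 14 replicate 1 or SiO2 day 63 replicate 2 (-0.59 to -0.77, adjusted p 0.0617 to 0.108).

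Other genes of alveolar fibroblasts also fell more often than they rose. Of 18 tested (19 were listed, among them lipid genes), 13 fell and 2 rose at BLM day 7, 14 fell and 2 rose at BLM day 14, and 6 fell and 1 rose at BLM day 63. At SiO2 day 7, 14 and 63, 15, 10 and 12 fell and 1, 2 and 1 rose. Of all tested genes, 14.9%, 18.5% and 5.48% fell and 16.7%, 20.7% and 6.02% rose at these days of BLM. After SiO2 the shares of all genes were 20.6%, 10.5% and 12.5% lower and 23.4%, 13.6% and 15.3% higher. The median log2 FC of the listed genes was -0.56, -0.69 and -0.09 after BLM and -1.15, -0.37 and -0.55 after SiO2. G0s2, an inhibitor of the lipase Atgl, fell by 3.06 ± 0.21 at BLM day 14 (adjusted p = 6.2e-13) and was lower in all 6 groups. Slc7a10, a neutral amino acid transporter, and Scube2, a secreted hedgehog-release factor, were also lower in all 6. Lpl, the lipoprotein lipase, went the other way, from 82.3 ± 14.7 CPM untreated (SD, n = 3) to 979.6 ± 42.2 at BLM day 14, and was called higher in all 6 groups.

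The adventitial fibroblast genes, which mark the fibroblasts around airways and vessels included both risen and fallen genes. Of 18 tested, 3 rose and 5 fell at BLM day 7, 3 and 8 at BLM day 14, and 3 and 6 at BLM day 63. Of all tested genes, 16.7%, 20.7% and 6.02% rose and 14.9%, 18.5% and 5.48% fell there. At SiO2 day 7, 3 rose and 11 fell, at day 14 5 and 3, and at day 63 4 and 7. The shares of all genes there were 23.4%, 13.6% and 15.3% higher and 20.6%, 10.5% and 12.5% lower. The 3 risen genes at BLM day 7 lie near the share of all genes. Between the models at day 14, 13 adventitial genes were higher and 2 lower in SiO2 than in BLM, against 9.06% and 8.03% of all tested genes. Their median log2 FC was 1.14, beside a median of 0.59 for the 10 alveolar genes. Pcolce2, an enhancer of procollagen processing, fell by 3.11 ± 0.17 at BLM day 14 and by 3.29 ± 0.17 at SiO2 day 7 (adjusted p = 3.1e-15 and 1.1e-15). Pla1a, a phospholipase, rose in all 6 groups, by 3.84 ± 0.32 at BLM day 14. Summed over the 18 adventitial genes, untreated libraries held 7016 to 7226 CPM. The BLM libraries held 2783 to 4091 CPM at day 7, 2214 to 2838 at day 14 and 6324 to 7825 at day 63. The SiO2 libraries held 2113 to 2360 CPM at day 7, 4630 to 6368 at day 14 and 3666 to 4223 at day 63. Such a sum is set mostly by its most abundant genes. At BLM day 7 the median log2 FC of the 18 genes was -0.03, with 10 not called. At SiO2 day 14 more of them rose than fell, though the sum was below untreated. Early falls were thus also seen among adventitial genes, but not across the whole list in each group.

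**Figure D4:**
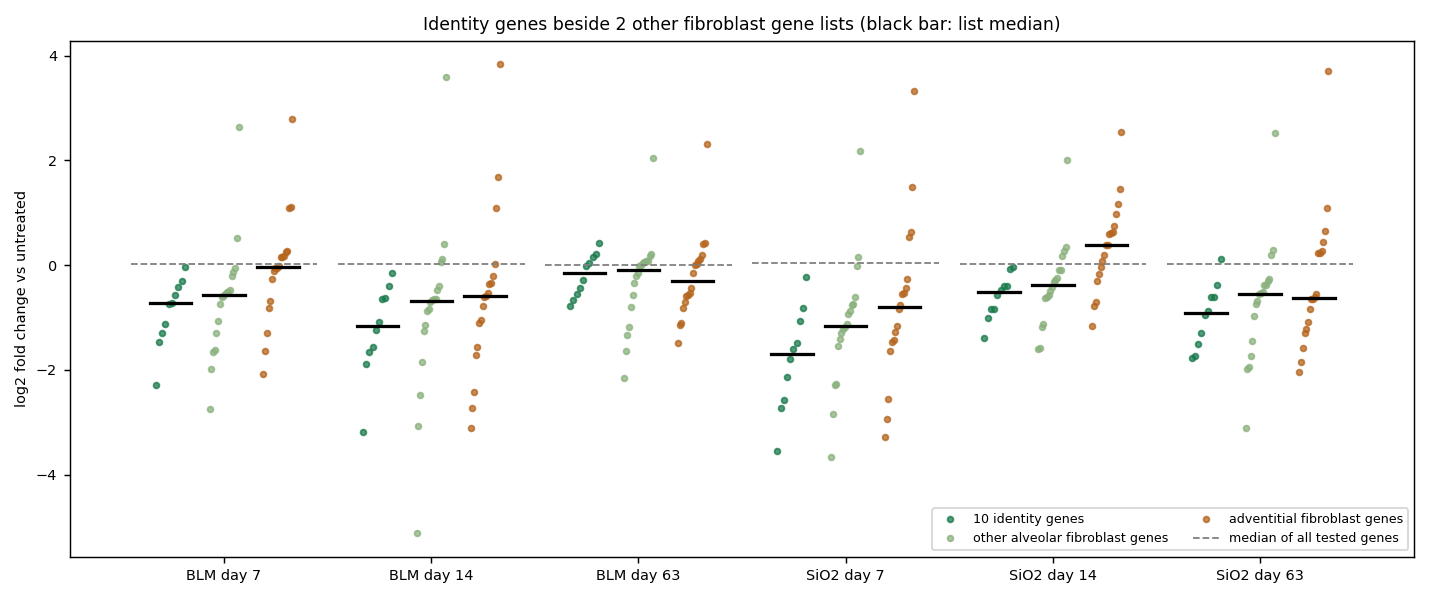
Log2 fold change against untreated in the 6 treated groups for the 10 identity genes, 18 other alveolar fibroblast genes and 18 adventitial fibroblast genes; each point is a gene, black bars are list medians and dashed lines the median of all tested genes. At SiO2 day 14 the median of the adventitial list is above 0 (0.38), and those of both alveolar lists are below 0 (-0.52 and -0.37). At BLM day 14 the adventitial median is below 0 too (-0.60, beside -1.16 and -0.69).

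Genes of the pathways of the 10 were followed from lists. Their counts stand beside the shares of all tested genes given above for each group, and several lie near them, such as 4 of 16 transcription factors higher at SiO2 day 7 beside 23.4% of all genes. Of 16 other lung mesenchyme transcription factors tested (20 listed), 7, 7 and 3 fell and 2, 3 and 1 rose at BLM day 7, 14 and 63, and 6, 6 and 6 fell and 4, 2 and 4 rose at the same days of SiO2. Their median log2 FC stayed between -0.27 and 0.06. The homeobox genes Hoxa5 and Hoxb5 fell early in both models, Hoxa5 by 1.83 ± 0.16 at SiO2 day 7 (adjusted p = 6.1e-11) and 1.12 ± 0.15 at BLM day 14 (5.7e-07), Hoxb5 by 1.31 ± 0.13 and 1.40 ± 0.13. Osr1, a zinc finger factor, was lower in all 6 groups. Prrx1, a homeobox factor of mesenchyme, rose instead, by 1.54 ± 0.13 at SiO2 day 7 (adjusted p = 2.3e-11) and 0.92 ± 0.13 at BLM day 14.

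Around Wnt2, the Wnt list of 18 tested genes had 4, 6 and 1 higher and 5, 5 and 3 lower at BLM day 7, 14 and 63. After SiO2 it had 5, 4 and 5 higher and 7, 2 and 6 lower. Its median log2 FC was -0.06, 0.03 and -0.06 after BLM and -0.57, 0.13 and -0.37 after SiO2. Axin2, a target gene of canonical Wnt signalling, was lower in all 6 groups, with 72.0 ± 5.90 CPM untreated, 27.2 ± 2.46 at BLM day 14 and 36.9 ± 2.03 at SiO2 day 7 (SD, n = 3). Its log2 FC was -1.41 ± 0.15 at BLM day 14 (adjusted p = 5.7e-09) and -1.10 ± 0.14 at SiO2 day 63 (4.2e-07). The co-receptor Lrp5 was lower in all 6 groups too and fell by 1.43 ± 0.12 at SiO2 day 7. Wnt5a, a ligand of mostly non-canonical Wnt signalling, was higher in 5 groups, by 0.83 ± 0.16 at SiO2 day 14 (adjusted p = 0.000252), and at BLM day 63 its log2 FC was 0.41 (adjusted p = 0.108).

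Around Fgf10, the FGF list of 14 had 3, 4 and 1 higher and 3, 4 and 0 lower at BLM day 7, 14 and 63, and 0, 1 and 2 higher and 6, 1 and 3 lower after SiO2. Its median log2 FC stayed between -0.11 and 0.11 in these groups except SiO2 day 7, where it was -0.35. Fgf7, the other mesenchymal ligand of the epithelial receptor that Fgf10 uses, fell by 0.79 ± 0.12 at BLM day 7 (adjusted p = 9.7e-06) and 0.75 ± 0.13 at BLM day 14, and was higher by 0.46 ± 0.12 at BLM day 63 (0.0078). It was not called in any SiO2 group against untreated. At day 7 Fgf7 was higher in SiO2 than in BLM (log2 FC 0.58, adjusted p = 0.0017), where Fgf10 was lower.

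Of 15 partners of Npnt and Itga8, 6, 7 and 4 rose and 4, 2 and 1 fell at BLM day 7, 14 and 63, and 7, 6 and 5 rose and 4, 1 and 4 fell after SiO2, with median log2 FCs between -0.22 and 0.03. Itgb1, the beta chain that pairs with Itga8 and was singled out for that after its values were seen, rose in all 6 groups, from 1229 ± 84.9 CPM untreated to 2521 ± 279.6 at BLM day 14 (SD, n = 3), while Itga8 fell in 5 of them. Fn1 and Tnc, matrix proteins that integrins bind, rose by 2.95 ± 0.17 and 4.12 ± 0.21 at BLM day 14. Of 12 glypican and hedgehog genes, 1, 2 and 2 rose and 4, 4 and 1 fell after BLM, and 2, 4 and 2 rose and 3, 0 and 1 fell after SiO2, with median log2 FCs between -0.31 and 0.30. Gpc4, another glypican with only 4 to 6 reads in an untreated library, rose by 2.34 ± 0.43 at SiO2 day 7 (adjusted p = 3.9e-05), where Gpc3 fell. Of 8 transmembrane and basement membrane collagens, 3, 3 and 0 rose and 2, 3 and 3 fell after BLM, and 3, 4 and 2 rose and 2, 1 and 2 fell after SiO2, with median log2 FCs between -0.04 and 0.33. Col17a1, which spans the membrane like Col13a1, was lower in all 6 groups and fell by 3.93 ± 0.32 at BLM day 14 (adjusted p = 3.9e-11), while the basement membrane chain Col4a1 rose by 2.49 ± 0.16 there.

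The genes most like the median of the 10 over the 7 groups were ranked by the root mean square (RMS) difference of centred log2 group means. The 8 nearest were Adamts8 (RMS 0.0995), Fxyd1 (0.101), Tmem204 (0.112), Gadd45b (0.119), Sepp1 (0.120), 4930523C07Rik (0.128), Bambi (0.129) and Prex2 (0.131). Adamts8, a secreted metalloprotease, had 44.8 ± 0.550 CPM untreated, 13.4 ± 4.74 at SiO2 day 7 and 28.5 ± 3.01 at SiO2 day 63 (SD, n = 3). Bambi, a decoy receptor for TGF-beta family ligands, had 901 ± 73.4 CPM untreated, 293 ± 40.4 at SiO2 day 7 and 444 ± 46.4 at SiO2 day 63. Of the 10 genes themselves, Itga8 (0.214), Limch1 (0.216) and Tcf21 (0.219) were nearest to their median and Inmt (0.817) and Meox2 (0.462) farthest from it. For Wnt2 the nearest of all tested genes was Col13a1, and for Col13a1 Wnt2 was second after St8sia2, with an RMS of 0.183 between the pair. Inmt was nearest to Gstm1 (0.263), Mettl7a1 (0.286) and Gsn (0.293), Tcf21 to Cd81, Specc1l and Dguok (0.0734 to 0.0909), and Fgf10 to Ufsp1, Sdpr and Clk1 (0.0673 to 0.0782). Distances use the same libraries as the group means and are descriptions.

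Sums over lists of genes used as markers of other cell types moved with the groups. Summed over 11 pericyte and smooth muscle markers, libraries held 41.7 to 52.6 CPM untreated, 147 to 337 at BLM day 7, 324 to 501 at BLM day 14, 68.2 to 82.3 at BLM day 63, 417 to 552 at SiO2 day 7, 93.1 to 130 at SiO2 day 14 and 157 to 166 at SiO2 day 63. Of these sums Actg2, Des and Acta2 made up most, and the markers Rgs5, Mcam, Higd1b and Cnn1 had no read in the untreated libraries and at most 7 in any other. The 7 mesothelial markers, whose sum was mostly Upk1b, summed to 516 to 642 CPM untreated, 271 to 379 at BLM day 7, 386 to 441 at BLM day 14, 355 to 432 at BLM day 63, 127 to 180 at SiO2 day 7, 397 to 518 at SiO2 day 14 and 223 to 256 at SiO2 day 63. Of these only Wt1 had libraries with no read, and the sums of BLM day 63 were below untreated like those of the earlier days. The 5 lymphocyte markers found summed to 4.92 to 10.8 CPM untreated, 33.0 to 54.8 at BLM day 7, 9.40 to 15.9 at BLM day 14, 4.003 to 6.222 at BLM day 63, 30.1 to 72.7 at SiO2 day 7, 25.3 to 36.0 at SiO2 day 14 and 34.9 to 46.3 at SiO2 day 63. The 7 myeloid markers found summed to 3.11 to 6.53 CPM untreated, 14.5 to 23.1 at BLM day 7, 9.67 to 14.6 at BLM day 14, 2.67 to 5.72 at BLM day 63, 9.11 to 13.5 at SiO2 day 7, 18.0 to 32.4 at SiO2 day 14 and 19.2 to 23.7 at SiO2 day 63. Every treated group but BLM day 63 was above the untreated range for the myeloid sum, and the same held for the lymphocyte sum except that BLM day 14 overlapped untreated. Few genes carried these sums. In each group of day 7 and day 14, 3 of the 5 lymphocyte markers had no read in any library. Only 2 of the 5 lymphocyte and 1 of the 7 myeloid markers passed the filter on low counts. The 12 epithelial markers summed to 22.6 to 35.1 CPM untreated and to 50.4 to 61.5 at BLM day 7, 19.1 to 20.6 at BLM day 14, 19.9 to 28.7 at BLM day 63, 38.0 to 60.9 at SiO2 day 7, 15.5 to 36.2 at SiO2 day 14 and 11.1 to 17.9 at SiO2 day 63. The 6 endothelial markers found summed to 21.6 to 30.4 CPM untreated and to 4.56 to 26.2 in treated libraries, and the 5 erythroid ones to at most 2.92. Of the genes of the antibody gate, Ptprc (CD45) had at most 4 reads in any library, Pecam1 (CD31) at most 1, Epcam at most 5 and Mcam (CD146) at most 7. The endothelial gene Cdh5 had at most 3 and the T cell gene Cd3e at most 1. Whether such cells were present, and their part in the results, was not tested. The ribosomal RNA symbol Rn45s took 0.0887% to 0.112% of counts in untreated libraries and 0.148% to 0.249% in treated ones, and its part was not tested either.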

How the data were processed

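The deposited files hold whole-number counts of 3′ tags per gene symbol, 1 table per library, made by the authors from Ion Proton reads. Bowtie2 2.2.5 and the mm10 build are named in the submitters' processing notes. The counting program, annotation and strand setting are not given in the sources used here. Libraries were grouped by their titles, and all 21 entered 1 fit. Counts were scaled by TMM, symbols were kept by filterByExpr (minimum count 10, by group), and a 7-group model was fitted with edgeR 4.0.16 in R 4.3.3 (glmQLFit and glmQLFTest, 14 residual degrees of freedom). The biological coefficient of variation was 12.0%. The 15 comparisons were adjusted separately over 11669 symbols, which held 99.7% of counts, with a threshold of 0.05. The script was tested on simulated counts. No row lacked a gene name. No pair of libraries of the same group agreed within sampling noise (smallest chi-square per degree of freedom 3.03).

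The 10 genes and all gene lists were chosen with earlier results of these data known. The text names all 10 genes, from each further list genes among the 3 with the smallest adjusted p in a comparison with untreated, and the 8 genes nearest to the median profile of the 10, or the 3 nearest to a single gene, by log2 CPM with a prior count of 2. The genes nearest to Npnt are not reported here. Gene positions are from GENCODE vM21. Replicate numbers recur in every group, and the labels do not say that they pair libraries. The correlation of deviations from the group mean ran from -0.12 to 0.06 over 63 same-number pairs, none over 0.1. Libraries handled together could still show so low a correlation, so pairing was not excluded. Alternatives were RLE, upper quartile and total-count scaling, no filter, DESeq2 1.42.0, limma-voom (limma 3.58.1), a replicate block, the compared groups alone and leaving out each library.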

Additional observations from a re-analysis of the deposited data

Results flagged for a closer look

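The change from day 7 to day 14 differed between the models for 9 of the 10 genes, by the interaction term of the edgeR quasi-likelihood model. On the log2 scale, the SiO2 change minus the BLM change was 0.85 for Tcf21 (adjusted p = 0.00352), 2.13 for Npnt (2.07e-09), 3.04 for Inmt (9.86e-08), 1.28 for Itga8 (2.4e-07) and 0.87 for Limch1 (6.86e-06). It was 2.56 for Wnt2 (adjusted p = 1.04e-05), 1.02 for Fgf10 (0.00764), 0.94 for Gpc3 (0.00237) and 2.37 for Col13a1 (5.65e-10).

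The change from day 14 to day 63 differed for the same 9 genes in the other direction. The SiO2 change minus the BLM change was -1.18 for Tcf21 (adjusted p = 5.98e-05), -2.04 for Npnt (3.15e-09), -3.57 for Inmt (3.23e-09), -1.43 for Itga8 (2.43e-08) and -0.60 for Limch1 (0.000679). It was -1.39 for Wnt2 (adjusted p = 0.00451), -0.79 for Fgf10 (0.0315), -1.14 for Gpc3 (0.000247) and -1.56 for Col13a1 (6.6e-07). Both differences use the day 14 libraries, so they are not independent of each other.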

How the results depend on the processing

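Of the 150 values of the 10 genes, 111 were called, and none of these changed direction under the alternatives run. Scaling by total counts alone left 2 of the 10 genes lower at BLM day 63 in place of 4. It also moved the median of all genes between BLM day 63 and BLM day 14 by 0.10 (log2) and the share of higher genes among those called there from 47.7% to 60.1%. Upper quartile scaling moved that share at SiO2 day 14 against untreated from 56.4% to 44.8%. With single libraries left out, the genes lower at BLM day 63 numbered 1 to 4 and those higher 0 to 1, and the genes called in all numbered 795 to 1408. Those lower in SiO2 than BLM at day 63 numbered 5 to 9. Between BLM day 7 and day 14, 1 to 4 were lower and 0 to 1 higher, with 661 to 1210 genes called in all. Between SiO2 day 14 and day 63, 201 to 465 genes were called (411 with all libraries; 231 without SiO2 day 14 replicate 3, 265 without SiO2 day 63 replicate 1, 201 without SiO2 day 63 replicate 2 and 249 without SiO2 day 63 replicate 3). The replicate block, with 3624 genes called at BLM day 7 and 5079 at SiO2 day 7, changed 1 call of the 10 genes, Npnt between BLM day 7 and 14 (adjusted p = 0.0642), and 4 of the 21 libraries correlated best with their own number. Low reads limit Wnt2, with 8 to 19 per library at SiO2 day 7.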
